A study of Mus musculus with 28 samples.

Results

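The 10 genes described here are the apolipoprotein genes Apoa1, Apoa2, Apoa4, Apob, Apoc1, Apoc2, Apoc3, Apoe, Apoh and Apom of the mouse. They were taken by name from the gene column of the series' count and TPM tables, which hold 31673 genes, and all 10 names were found once. Their levels are given in 28 RNA-seq libraries of 9 cell groups from a study of the chemical conversion of mouse fibroblasts into endoderm progenitors and then into hepatocyte-like cells. Conversion began from E13.5 embryo fibroblasts (MEF, 3 libraries, passage 2) or from dermal fibroblasts of newborn mice (MNF, 2 libraries, passage 2). Chemically induced endoderm progenitor cells were derived from MEF (MEF_ciEPC, 10 libraries) and from MNF (MNF_ciEPC, 2 libraries, passages 2 and 3). The MEF_ciEPC libraries form 2 numbered series, series 1 with 6 libraries from passage 2 to passage 22 and series 2 with 4 libraries from passage 1 to passage 22. Hepatocyte-like cells were derived from ciEPCs of passages 3 to 10 of either origin (MEF_ciHep, 3 libraries, and MNF_ciHep, 2 libraries). The references were OG2 embryonic stem cells at passage 5 (ESC, 2 libraries), endoderm progenitors made from stem cells of passages 10 to 15 (ESC_EPC, 2 libraries) and primary hepatocytes of adult liver at passage 0 (pHep, 2 libraries). All 9 groups carry an Oct4-GFP transgene, a reporter of the pluripotency gene Oct4. The strain label of MNF, MNF_ciEPC, MNF_ciHep and pHep names a CBA/CaJ by C57BL/6J background, and that of the other groups adds a cross to 129Sv/Jae females, so origin and strain background cannot be told apart. One source field of the MNF_ciEPC libraries names MEF, and their title, description and cell type, which were followed, name MNF.

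Apolipoproteins are the protein part of the particles that carry cholesterol and triglyceride in blood. Apob is the structural protein of very-low-density and low-density lipoprotein and stays with one particle for its life. Apoa1 is the main protein of high-density lipoprotein (HDL), Apoa2 and Apom are further HDL proteins, and Apoa4 is made largely by the intestine and in mice also by the liver. Apoe is the ligand by which remnant particles are taken up by receptors, and it is made by the liver and by macrophages, astrocytes and other cells outside it. Apoc1, Apoc2 and Apoc3 are small exchangeable proteins, of which Apoc2 is the activator of lipoprotein lipase and Apoc3 slows triglyceride clearance. Apoh, beta-2-glycoprotein I, is a phospholipid-binding plasma protein made by hepatocytes. The yolk sac visceral endoderm also makes several of these proteins before the liver does.

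The genes lie on 6 chromosomes of GRCm38 (the mm10 genome), by the GENCODE M21 annotation, in which the identifiers of all 10 match those of the tables. A cluster on chromosome 9 holds Apoa1 (ENSMUSG00000032083, 46228580 to 46230466, plus strand), Apoc3 (ENSMUSG00000032081, 46232933 to 46235636, minus strand) and Apoa4 (ENSMUSG00000032080, 46240696 to 46243459, plus strand). The gap from Apoa1 to Apoc3 is 2466 bases and that from Apoc3 to Apoa4 is 5059 bases. A cluster on chromosome 7, all on the minus strand, holds Apoc2 (ENSMUSG00000002992, 19671579 to 19677941), Apoc1 (ENSMUSG00000040564, 19689481 to 19692660) and Apoe (ENSMUSG00000002985, 19696109 to 19699188), with 3448 bases between Apoc1 and Apoe. The other members stand alone. Apoa2 (ENSMUSG00000005681) lies on chromosome 1 at 171225054 to 171226379 and Apoh (ENSMUSG00000000049) on chromosome 11 at 108343354 to 108414396, both on the plus strand. Apob (ENSMUSG00000020609) lies on chromosome 12 at 7977648 to 8016835 on the plus strand, and Apom (ENSMUSG00000024391) on chromosome 17 at 35128997 to 35132050 on the minus strand. The antisense gene Gm10680 overlaps 839 bases of Apoa4, and Gm44805 overlaps 6358 bases of Apoc2 on the same strand. The authors' estimated counts of Apoa4 were fractional in 14 of the 18 libraries with any and those of Apoc2 in 3 of 18, so part of their reads was shared out with other genes and their values are uncertain to that extent. The counts of the other 8 genes were whole.

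Apoe was present in every group, Apoa1 was highest by TPM in MEF_ciHep, and Apoa2, Apob and Apoh were highest in pHep. These genes stand for the patterns described below, so the stretches before a RefSeq start site of these 5 members are shown. Each is the part of the RefSeq promoter window (GRCm38.p6, 250 bases before to 50 after the start) that precedes the first annotated exon in that window, on the gene's own strand, at chr9:46228380-46228579 for Apoa1, chr1:171224804-171225053 for Apoa2, chr12:7977427-7977647 for Apob, chr7:19699189-19699438 for Apoe and chr11:108395047-108395292 for Apoh. The Apoh stretch lies inside the gene span given above, at a start downstream of the first one annotated there, and the other 4 lie just outside the span of their gene. Capitals mark matches to TGTTTAC (a FOXA-type motif), TTGCNNAA (a C/EBP-type motif) and TATAAA (the TATA box), searched on both strands.

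Apoa1: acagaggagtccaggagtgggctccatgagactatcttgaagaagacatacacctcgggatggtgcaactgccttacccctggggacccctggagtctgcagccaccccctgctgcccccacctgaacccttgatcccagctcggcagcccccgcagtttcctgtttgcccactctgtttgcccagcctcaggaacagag
Apoa2: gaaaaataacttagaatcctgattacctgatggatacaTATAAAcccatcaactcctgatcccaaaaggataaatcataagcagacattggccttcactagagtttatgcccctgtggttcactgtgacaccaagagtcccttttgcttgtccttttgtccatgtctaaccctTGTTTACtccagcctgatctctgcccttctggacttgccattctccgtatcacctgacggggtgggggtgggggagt
Apob: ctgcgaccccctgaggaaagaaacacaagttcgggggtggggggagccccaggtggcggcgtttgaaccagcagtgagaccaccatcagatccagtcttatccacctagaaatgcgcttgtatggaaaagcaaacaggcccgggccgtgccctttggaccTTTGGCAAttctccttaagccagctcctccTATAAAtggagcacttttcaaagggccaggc
Apoe: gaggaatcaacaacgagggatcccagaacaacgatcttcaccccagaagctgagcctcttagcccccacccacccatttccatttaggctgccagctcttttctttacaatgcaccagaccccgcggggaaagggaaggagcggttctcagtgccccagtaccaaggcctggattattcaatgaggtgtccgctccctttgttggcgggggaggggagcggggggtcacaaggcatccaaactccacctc
Apoh: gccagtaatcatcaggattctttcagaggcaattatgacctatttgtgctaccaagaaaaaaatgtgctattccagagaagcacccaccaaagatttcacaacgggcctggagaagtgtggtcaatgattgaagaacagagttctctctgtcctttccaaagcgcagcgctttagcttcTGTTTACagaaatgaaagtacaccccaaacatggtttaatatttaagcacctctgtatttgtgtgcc

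Promoter windows were found for 8 of the 10 members, and Apoc1 and Apoc3 had none in the table used. Over the full windows, TGTTTAC was found in those of Apoa2, Apoe and Apoh and in 3.65% of all 32851 windows. The C/EBP-type motif was found for Apoa2 and Apob and in 10.8% of all windows, and TATAAA for Apoa2, Apob and Apoe and in 13.6%. Some of these matches lie in windows of alternative starts that are not printed. The other motifs searched had no match in a member's window. The HNF4-type motif CAAAGTCCA was found in 0.475% of all windows. The motif TGACCTTTG of other nuclear receptors was found in 0.478% of all windows. The HNF1-type motif GTTAATNAT was found in 0.801% of all windows. The GATA-type motif AGATAA was found in 11.2% of all windows. No match says only that these letters are not in this window.

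Depth was 1439670 to 6133147 expected counts per library. The deposited gene lengths imply 3 library types, with a fragment or read length of 49.5 to 50.6 bases (pHep, MEF_ciHep, MNF_ciHep, MEF_ciEPC), of 74.3 to 74.5 bases (ESC, MNF_ciEPC, MEF, MNF) or of 187 to 196 bases (ESC_EPC), so comparisons that cross these classes cannot be told apart from a difference in library type. One library stood apart from its group: that labelled MEF_ciEPC series 2 passage 22 had a correlation of 0.956 with ESC but of 0.762 with the rest of its group, and 9 pluripotency markers summed to 13880 TPM in it against 311.9 to 741.6 in the other 9. Marker lists were read against the labels. Of 12 hepatocyte markers, 11 are in the tables, and they summed to 18360 to 23610 TPM in pHep, 3218 to 4490 in MEF_ciHep and 30.7 to 64.5 in MNF_ciHep, where Serpina1a, Cps1, Cyp2e1 and Cyp3a11 were at 0. Fibroblast markers (12 genes) summed to 2646 to 5806 TPM in MNF_ciHep and 53.8 to 95.2 in MEF_ciHep. Visceral endoderm markers (14 genes) summed to 3655 to 8565 TPM in MEF_ciHep, 820.7 to 2833 in MNF_ciHep and 648.9 to 847.4 in pHep. Intestinal epithelium markers (10 genes) summed to 213.9 to 358.5 TPM in MEF_ciHep, 11.7 to 24.3 in MNF_ciHep and 152.4 to 323.7 in pHep. The part of either list in the members' levels was not tested. The 2 pHep libraries also differ in sex-linked genes: 4 Y-linked genes summed to 106.6 TPM in replicate 1 and 2.15 in replicate 2, and Xist, the RNA of the inactive X chromosome, had 1.29 and 367 TPM. These Y-linked genes summed to 104 and 73.2 TPM in MNF and 61.0 and 81.6 in MNF_ciHep but 0.6 and 1.07 in MNF_ciEPC. They summed to 85.1 and 97.9 TPM in ESC but 0.48 and 0.06 in ESC_EPC. In MEF_ciEPC series 1 they summed to 0.27 TPM at passage 22 against 56.15 to 110.9 in the other 5 libraries. In series 2 they summed to 0 TPM at passage 22 and to 139.3, 71.86 and 90.65 TPM at passages 1, 5 and 10. Xist had 1.73 TPM at passage 22 of series 2 and 179.3, 348.2 and 276.6 TPM at its passages 1, 5 and 10.

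Levels are given as TPM (a share of the library, scaled for gene length), which allows genes to be compared. In bulk RNA a lower level may be fewer cells that make a transcript or less of it per cell, and the 2 cannot be told apart. The plot of TPM by library shows all values.

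**Figure D1:**
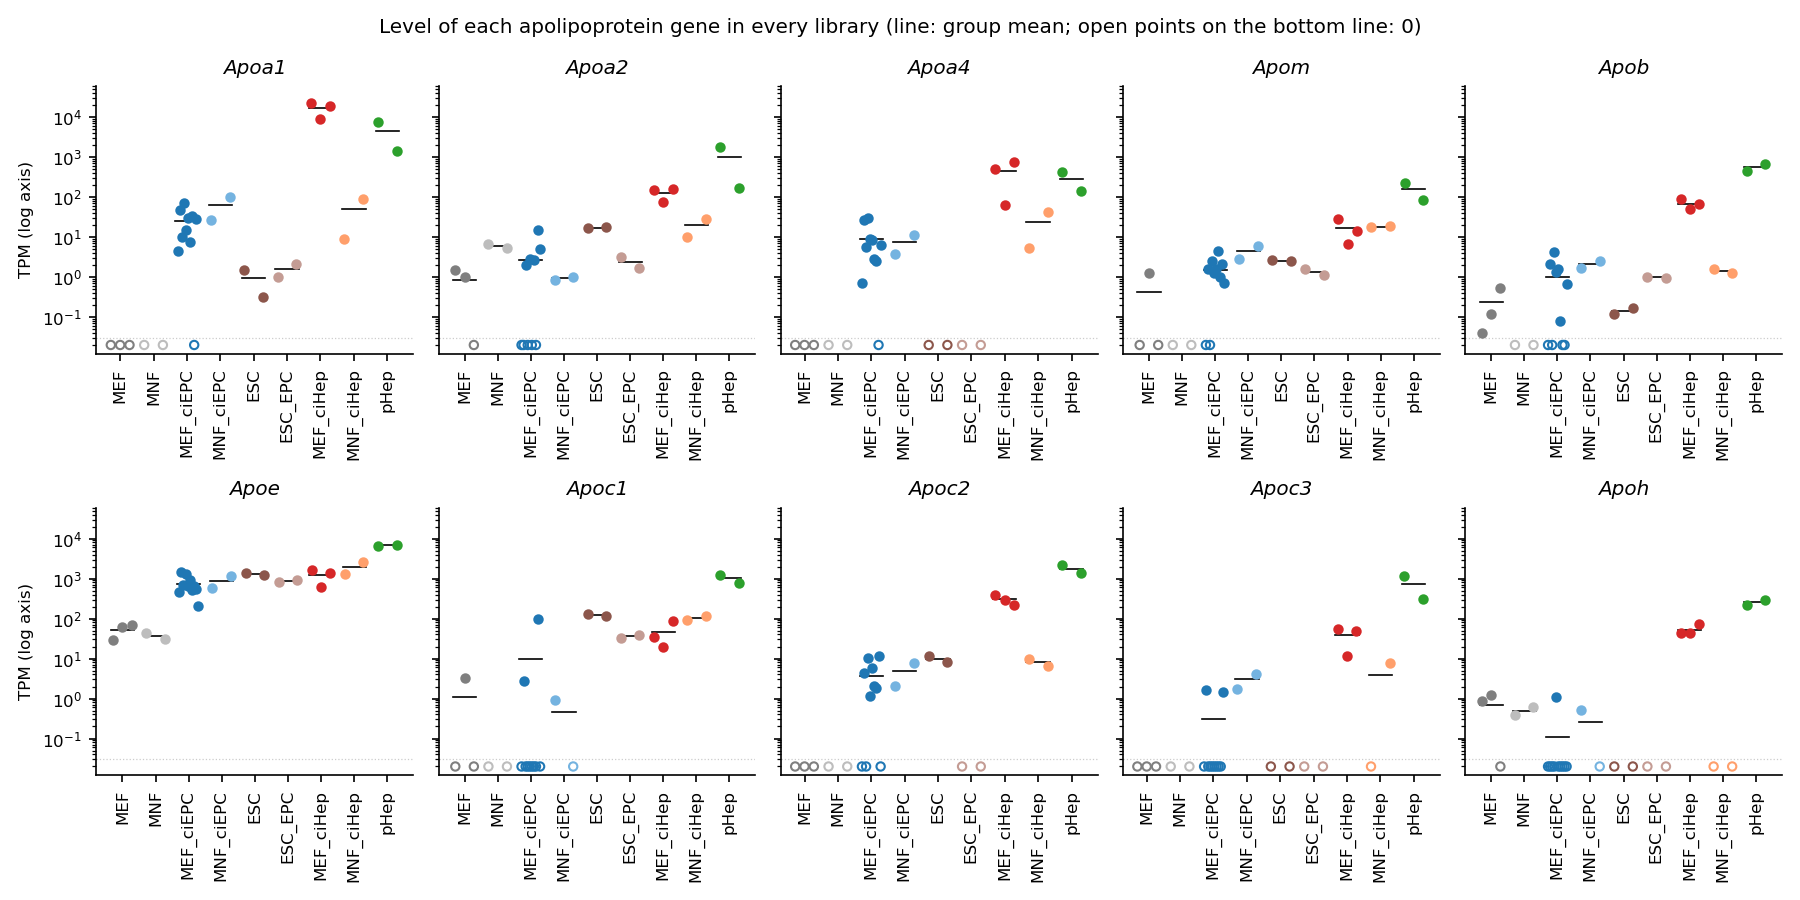
TPM on a log axis of each apolipoprotein gene in the 28 libraries, 1 point per library, with the 9 cell groups on the horizontal axis, a black line at the group mean and open points on the bottom line for libraries at 0. Apoe is present in every library, the other members are low or at 0 in fibroblasts, and Apoh is at 0 in both MNF_ciHep libraries.

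Apoa1 had 7530 and 1408 TPM in pHep and 22586, 8883 and 19036 TPM in the 3 MEF_ciHep libraries. All 3 MEF_ciHep libraries were above both pHep libraries on this scale. On the scale of the tests below, CPM (counts as a share of the library), the groups overlapped. There MEF_ciHep replicate 2 had 4681 and pHep replicate 1 had 4791 CPM. MNF_ciHep had 8.94 and 90.5 TPM, MNF_ciEPC 27.2 and 98.3 TPM, and the MEF_ciEPC libraries 0 to 73 TPM with a median of 21.8. ESC (1.54 and 0.31 TPM) and ESC_EPC (1.01 and 2.17 TPM) had few reads, and none of the 5 fibroblast libraries had a count. The groups therefore fell into the order MEF_ciHep, pHep, MNF_ciEPC, MNF_ciHep, MEF_ciEPC, ESC_EPC, ESC and fibroblasts, and neighbours from MNF_ciEPC down to ESC overlapped. The MEF_ciEPC library at 0 was series 2 passage 22, the stem-cell-like one, and without it the lowest had 4.59 TPM, above both ESC_EPC libraries.

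Apoa4, its neighbour on chromosome 9, had 515, 62.4 and 773 TPM in MEF_ciHep and 413 and 144 TPM in pHep. These ranges overlapped. It had 5.32 and 43.4 TPM in MNF_ciHep, 3.81 and 11.3 in MNF_ciEPC and 0 to 29.4 (median 6.05) in MEF_ciEPC. It was at 0 in MEF, MNF, ESC and ESC_EPC.

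Apoa2 was highest in pHep, where the 2 libraries were far apart, at 1808 and 170.5 TPM. MEF_ciHep had 150, 75.7 and 158 TPM, all below both of these. MNF_ciHep had 10.1 and 28.9 TPM, and ESC had 16.96 and 17.7 TPM, within that range. In every other group the highest library had 14.75 TPM, which was the stem-cell-like MEF_ciEPC library, or less.

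Apom, which carries sphingosine-1-phosphate on HDL, had 231.5 and 83.4 TPM in pHep. In MEF_ciHep it had 29.1, 6.88 and 13.9 TPM and in MNF_ciHep 17.7 and 18.5 TPM, so that the MNF_ciHep values lay within the MEF_ciHep range. It reached 6.11 TPM in MNF_ciEPC and 4.42 TPM in MEF_ciEPC, and was at 0 in both MNF libraries.

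Apob had 447 and 689 TPM in pHep and 90.5, 49.4 and 66.8 TPM in MEF_ciHep. In MNF_ciHep it had 1.60 and 1.29 TPM, below the 1.68 and 2.54 TPM of MNF_ciEPC. The deposited transcript length of Apob ranged from 1118 to 13860 bases between libraries, with 8695 and 7570 in pHep and 2625 and 4373 in MNF_ciHep, so its TPM and its counts give different ratios between groups.

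Apoe was the only member with a count in all 28 libraries. It had 28.9, 60.3 and 70.0 TPM in MEF and 43.3 and 30.9 in MNF. In MEF_ciEPC it had 212 to 1502 TPM with a median of 656, in MNF_ciEPC 582 and 1179, in ESC_EPC 832 and 912 and in ESC 1360 and 1248. MEF_ciHep had 1677, 603 and 1395 TPM, MNF_ciHep 1316 and 2663 TPM and pHep 6474 and 7021 TPM, which ranks it between sixth and thirteenth among all genes there. The ranges of all neighbours in the order MNF_ciHep, ESC, MEF_ciHep, MNF_ciEPC, ESC_EPC and MEF_ciEPC overlapped. pHep stood above all other groups and the fibroblasts below them.

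Apoc1, whose gene is the neighbour of Apoe, had 1262 and 754 TPM in pHep, 130 and 116 in ESC and 92.7 and 114 in MNF_ciHep. MEF_ciHep had 35.6, 19.0 and 86.9 TPM and ESC_EPC 32.3 and 39.3 TPM. It was at 0 in 8 of the 10 MEF_ciEPC libraries, with 95.3 TPM in the stem-cell-like library and 2.67 TPM in series 1 passage 2.

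Apoc2 had 2172 and 1380 TPM in pHep and 394, 290 and 219 TPM in MEF_ciHep. Far below them, and each overlapping with the next, ESC (11.5 and 8.40 TPM), MNF_ciHep (9.75 and 6.44 TPM), MNF_ciEPC (2.03 and 7.82 TPM) and MEF_ciEPC (0 to 11.6 TPM) came next. It was at 0 in all fibroblast and ESC_EPC libraries.

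Apoc3 had 1191 and 310 TPM in pHep and 53.8, 11.4 and 49.6 TPM in MEF_ciHep. MNF_ciHep had 0 and 7.70 TPM and MNF_ciEPC 1.77 and 4.23 TPM, and 2 of the 10 MEF_ciEPC libraries had a single count. It was at 0 in the fibroblast, ESC and ESC_EPC libraries.

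Apoh had 216 and 292 TPM in pHep and 42.9, 44.3 and 71.7 TPM in MEF_ciHep. Everywhere else no library had more than 2 counts, and both MNF_ciHep libraries, ESC and ESC_EPC were at 0. The groups at or near 0 do not differ beyond 3 counts, the floor used here.

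Together the 10 genes made up 1.007 to 2.56% of all TPM in MEF_ciHep, 1.23 and 2.19% in pHep and 0.147 and 0.298% in MNF_ciHep. In all other libraries they made up 0.00314 to 0.159%. The make-up differed as well. Apoa1 was 87.0 to 88.4% of the members' TPM in MEF_ciHep, with Apoe at 6.00 to 6.56%. In pHep Apoa1 was 34.6 and 11.5% and Apoe 29.8 and 57.3%, with Apoc2 at 9.99 and 11.3%. In MNF_ciHep Apoe was 90.01 and 89.6%, close to its 81.2 to 98.9% in MEF_ciEPC and 89.3 to 95.5% in ESC and ESC_EPC. The plot of shares by library shows Apoe as the largest part in every group but MEF_ciHep and, in its replicate 1, pHep.

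**Figure D2:**
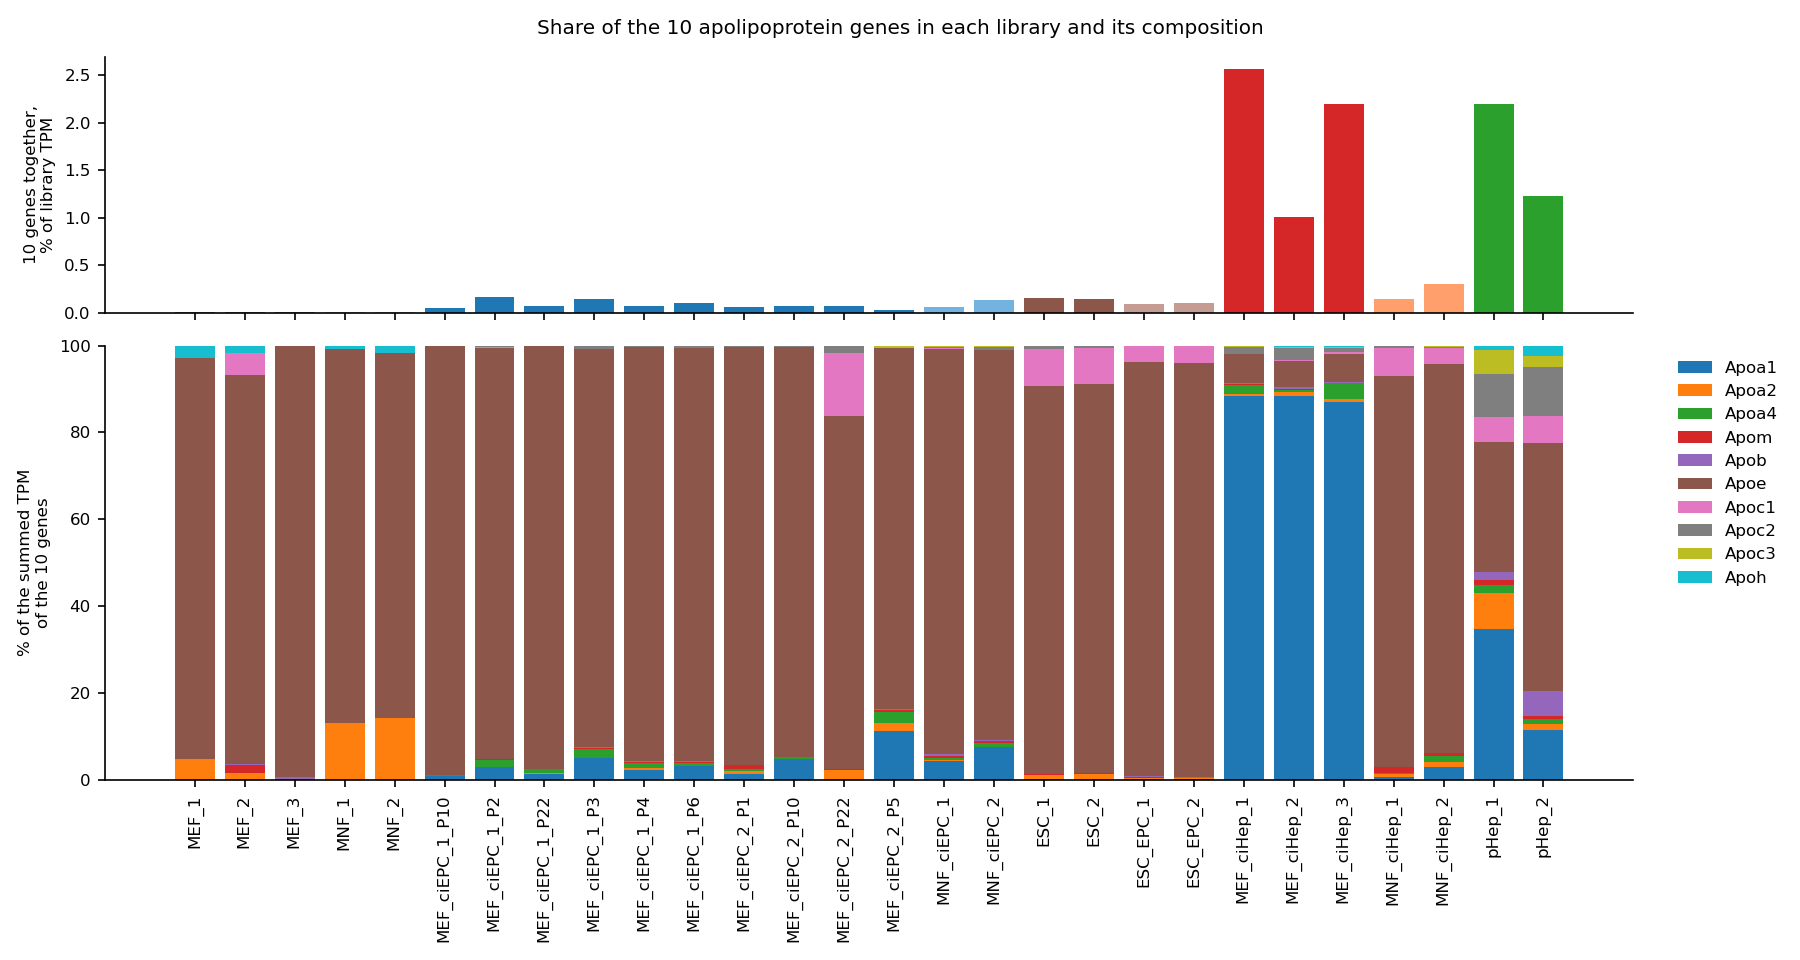
Upper panel, the 10 genes together as a percent of the TPM of each library; lower panel, the share of each gene in their summed TPM, 1 bar per library, coloured by group above and by gene below. Apoa1 fills 87.0% or more of the bars of MEF_ciHep, Apoe is the largest part in every other group but pHep, and in pHep no gene exceeds 57.3%.

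Neighbours did not keep a fixed ratio. The TPM of Apoa1 was 420, 779 and 384 times that of Apoc3 in MEF_ciHep and 6.33 and 4.54 times in pHep, where the genes are 2466 bases apart. Apoa2 lies on another chromosome, and the TPM of Apoa1 was 151, 117 and 120 times that of Apoa2 in MEF_ciHep. In pHep it was 4.17 and 8.26 times. Apoe was 10.4 and 10.8 times Apoc1 in ESC, 5.13 and 9.31 times in pHep and 16.1 to 47.1 times in MEF_ciHep, while in series 1 passage 2 of MEF_ciEPC it was 562 times, on 1 count of Apoc1, in the stem-cell-like library 5.62 times and in the other 8 MEF_ciEPC libraries Apoc1 had no count. These ratios are a description and were not tested.

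To find what the chemical treatment changed, ciEPCs were compared with their fibroblasts. Means and folds in what follows come from TMM-scaled CPM (counts as a share of the library), in which each numbered series of MEF_ciEPC is 1 sample. A gene counts as called where the edgeR quasi-likelihood test, with Benjamini-Hochberg adjustment over the 16061 genes tested, gave an adjusted p under 0.05 with at least a 2-fold change. All 10 members passed the low-count filter, some of them, such as Apoc3 and Apoh, only through their hepatocyte-like and hepatocyte libraries, so the number that passed is no result. In MEF_ciEPC against MEF 3 members rose and none fell, where 17.6% of all genes rose and 15.8% fell. Apoe rose to 297 CPM from 27.2 CPM, 10.9-fold (log2 3.44 ± 0.48 SE, adjusted p = 2.79e-05), and all libraries of MEF_ciEPC were above all of MEF. The SE here and below is the size of the log2 fold change over the square root of the test's F statistic. It is derived from the test and is not a fitted standard error. With 3 counts or fewer in a group it does not measure the error of the fold. Apoa1, without a count in MEF, rose to 11.2 CPM, at least 45.7-fold (adjusted p = 0.00679). Apoc2 rose from 0 to 0.877 CPM, at least 3.40-fold (adjusted p = 0.0308), on 24 counts in all, and this call was lost without the stem-cell-like library (0.063) and without any one MEF replicate or ciEPC series (0.052 to 0.081). Apoa4, with 222 counts against 0, at least 31.4-fold, did not pass (adjusted p = 0.067), but it passed under 6 of 17 alternatives. These were DESeq2 (0.00095), limma on log2(TPM + 1) (0.019) and log2(TPM + 0.1) (0.00027) and no low-count filter (0.0079). It also passed with only the groups compared (0.0085) and with MEF_ciEPC libraries as separate samples (0.015). The remaining 6 had adjusted p of 0.12 to 0.651. Of these, Apoc1 passed without series 1 (log2 3.81, adjusted p = 0.011), which leaves the series with the stem-cell-like library, and Apob without series 2 (log2 2.60, adjusted p = 0.0023). Markers of the visceral endoderm (14 genes) moved the same way: 12 of 14 rose and none fell, and they summed to 105.4 to 156.5 TPM in MEF, where Sox17, Hnf4a and Ihh were at 0, and to 842.6 TPM in the stem-cell-like library and 4288 to 7783 in the other 9 of MEF_ciEPC. Of 10 tested hepatocyte markers 1 rose. Of 7 tested macrophage markers none rose and 6 fell, and C1qa, C1qb and C1qc were at 0 in MEF_ciEPC. The part of the visceral endoderm markers in the members' rise was not tested. MEF_ciEPC and MEF are also of different library types, and the part of this was not tested.

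In MNF_ciEPC against MNF 5 members rose and none fell, against 18.4% and 21.9% of all genes. Apoe rose from 17.9 to 400 CPM, 22.3-fold (log2 4.48 ± 0.58, adjusted p = 1.25e-05). Apoa1 rose from 0 to 27.6 CPM, at least 85.5-fold (adjusted p = 0.00266), and Apob from 0 to 6.23 CPM, at least 19.9-fold (adjusted p = 0.00206). Apom rose from 0 to 1.94 CPM, at least 6.09-fold (adjusted p = 0.00974), and Apoc2 from 0 to 1.29 CPM, at least 3.97-fold (adjusted p = 0.0245). The Apoc2 call was lost without MNF replicate 1 (0.081) or 2 (0.079) or MNF_ciEPC replicate 2 (0.14). Apoa4 had 72 counts against 0 and an adjusted p of 0.114, but it passed under 5 of 14 alternatives. These were DESeq2 (0.003), limma on log2(TPM + 1) (0.026) and log2(TPM + 0.1) (0.00039), no low-count filter (0.025) and only the groups compared (0.0011). Here 14 of 14 visceral endoderm markers rose, from a sum of 92.35 to 131.8 TPM in MNF to 5392 to 5500 in MNF_ciEPC, with Afp, Rhox5, Hnf4a and Cldn6 at 0 in MNF, and 0 of 10 hepatocyte markers rose. Their part was not tested here either. The ciEPCs of both origins were then set against each other. No member passed in MNF_ciEPC against MEF_ciEPC in either direction, where 0.971% of all genes were higher and 3.49% lower, and Apoe differed by a log2 of 0.43 ± 0.49 (adjusted p = 0.675). These groups are of different library types. Without series 1 of MEF_ciEPC, which leaves the series with the stem-cell-like library, Apob was called higher (log2 4.73, adjusted p = 0.0029) and Apoc1 lower (log2 -5.12, adjusted p = 0.026) in MNF_ciEPC.

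For the route from stem cells, ESC_EPC was compared with ESC. None of the members rose and 2 fell, where 18.6% of all genes rose and 14.7% fell, so the 2 are near the share of all genes. Apoc2 fell from 2.52 CPM to 0, at least 7.48-fold lower (adjusted p = 0.00848). Apoc1 fell from 22.7 to 4.197 CPM, 5.38-fold lower (log2 -2.43 ± 0.89, adjusted p = 0.0385), a call lost with an offset for effective length (adjusted p = 0.097), with DESeq2 (0.063), with limma on log2(TPM + 1) (0.17) and log2(TPM + 0.1) (0.42) and without any one of the 4 libraries (0.095 to 0.17). Apoa2, with 3 counts against 32 in ESC, was 11.4-fold lower (95% counting interval 3.56 to 58.1, adjusted p = 0.0946) and passed with DESeq2 (0.018), with limma on log2(TPM + 1) (0.029) and with only the groups compared (0.00083). Apoe had 642 CPM in ESC and 359 CPM in ESC_EPC (log2 -0.84 ± 0.50, adjusted p = 0.188). Against ESC_EPC, MEF_ciEPC had 2 members higher and none lower, beside 16.8% and 14.9% of all genes, so the 2 are near the share of all genes. Apoa1 was higher, at 11.2 against 0.651 CPM, 16.9-fold (adjusted p = 0.0384), and so was Apoc2, at 0.877 CPM against 0, at least 2.77-fold (adjusted p = 0.0474). The Apoa1 call was lost without MEF_ciEPC series 1 (0.11) or either ESC_EPC library (0.12 and 0.18), and the Apoc2 call with RLE scaling (0.054), with a count minimum of 50 (0.051), with MEF_ciEPC libraries as separate samples (0.060) and without any one of the 2 series or 2 ESC_EPC libraries (0.072 to 0.16). Apoa4, with 222 counts against 0, at least 25.7-fold, did not pass (adjusted p = 0.0975), but it passed under 6 of 16 alternatives. These were DESeq2 (0.0047), limma on log2(TPM + 1) (0.035) and log2(TPM + 0.1) (0.00081) and no low-count filter (0.017). It also passed with only the groups compared (0.016) and with MEF_ciEPC libraries as separate samples (0.035). Without the stem-cell-like library Apoc2 lost its call (0.087) and Apoc1 was lower in MEF_ciEPC (log2 -5.98, adjusted p = 0.00041), and without series 1 Apob was (log2 -3.83, adjusted p = 0.0044). Both comparisons cross library types, and ESC and ESC_EPC differ in Y-linked genes as given above. The part of this was not tested.

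At the hepatic induction step 9 of the 10 members rose in cells of MEF origin and 2 in cells of MNF origin. The 2 of MNF origin are near the share of all genes that rose there, 19.5%. In MEF_ciHep against MEF_ciEPC, where 17.8% of all genes rose and 14.8% fell, every member but Apoe rose and none fell, with a median log2 fold change of 6.24 against -0.08 over all genes. Both groups are of 1 library type. Apoa1 rose from 11.2 to 9224 CPM, 812-fold (log2 9.67 ± 1.27, adjusted p = 5.81e-05). Apob rose from 2.58 to 314 CPM, 109-fold (log2 6.77 ± 0.70, adjusted p = 3.82e-06), and Apoc2 from 0.877 to 96.8 CPM, 105-fold (log2 6.72 ± 0.51, adjusted p = 1.73e-06). Apoh, with 2 counts in all MEF_ciEPC libraries and 349 in MEF_ciHep, was 428-fold higher (95% counting interval 118 to 3548, adjusted p = 5.57e-07). Apoc3, with 2 counts against 87, was 107-fold higher (28.7 to 895, adjusted p = 0.00171). Apoa4 (59.8-fold, adjusted p = 0.00349), Apoa2 (58.1-fold, adjusted p = 0.000211) and Apom (12.6-fold, adjusted p = 0.00128) rose less. Apoc1 rose 5.56-fold (log2 2.48 ± 0.89, adjusted p = 0.0331), and this call was lost without MEF_ciHep replicate 3 (log2 1.67, adjusted p = 0.17) or MEF_ciEPC series 1 (log2 1.25, adjusted p = 0.18), with limma on log2(TPM + 0.1) (0.078), with an offset for effective length (0.057) and with only the groups compared (0.20). Apoe had 297 and 615 CPM (log2 1.05 ± 0.47, adjusted p = 0.0777). It passed without MEF_ciHep replicate 2 (log2 1.39, adjusted p = 0.018) or MEF_ciEPC series 1 (log2 1.60, adjusted p = 0.045), and with DESeq2 (0.029). The series differ in the low levels from which the members rose: without series 1 the log2 fold change was 10.33 for Apob, 7.35 for Apoa4 and 4.82 for Apoa2, and without series 2 it was 6.00, 5.29 and 7.30, and 6.83 for Apoc1. Without the stem-cell-like library it was 7.15 for Apoc1 (adjusted p = 2.95e-05) and 6.60 for Apoa2. Without MEF_ciHep replicate 1 it was 2.96 for Apom, and without replicate 3 it was 5.30 for Apoa4.

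In MNF_ciHep against MNF_ciEPC Apoc1 and Apom rose and none fell, where 19.5% of all genes rose and 10.8% fell. The median log2 fold change of the members was 1.13, against 0.05 over all genes. Apoc1, with 1 count in MNF_ciEPC and 100 in MNF_ciHep, was 241-fold higher (95% counting interval 42.2 to 9606, adjusted p = 0.00127). Without MNF_ciEPC replicate 1, which holds that count, its adjusted p was 0.0163, and without replicate 2 its log2 fold change was 6.75 (adjusted p = 0.0197). Apom rose from 1.94 to 9.01 CPM, 4.63-fold (log2 2.21 ± 0.78, adjusted p = 0.0344), a call that was lost without any one of the 4 libraries (adjusted p 0.067 to 0.21) and with limma on log2(TPM + 0.1) (0.12). Apoa2, with 2 counts against 19, was 22.9-fold higher (95% counting interval 5.52 to 203) and did not pass (adjusted p = 0.0576), but it passed with DESeq2 (0.0030), with both limma fits (0.0066 and 0.015) and with no low-count filter (0.024). Apoe had 400 and 950 CPM (log2 1.25 ± 0.50, adjusted p = 0.0583), and it passed without MNF_ciHep replicate 1 (adjusted p = 0.048), with DESeq2 (0.029) and with no low-count filter (0.035). Apoa1 had means of 27.6 and 25.3 CPM (log2 -0.22 ± 0.99, adjusted p = 0.89), from libraries far apart, 12.1 and 43.2 CPM in MNF_ciEPC and 4.56 and 46.0 CPM in MNF_ciHep. Its log2 fold change was -2.69 without MNF_ciHep replicate 2, 0.62 without its replicate 1, 0.88 without MNF_ciEPC replicate 2 and -0.94 without its replicate 1, and it passed in none of these. Apob had 6.23 and 2.50 CPM (log2 -1.36 ± 0.92, adjusted p = 0.256). The comparison crosses library types. Fibroblast markers (12 genes) summed to 484 to 593 TPM in MNF_ciEPC and 2646 to 5806 TPM in MNF_ciHep, and the Y-linked genes differ as given above. The part of either in these values was not tested.

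The difference between the 2 induction steps was itself tested. It was called lower in the MNF step for 4 members and higher for none, where 12% of all genes were lower and 17.7% higher. The log2 difference was -9.89 ± 1.499 for Apoa1 (adjusted p = 0.00035), -8.13 ± 1.05 for Apob (adjusted p = 6.16e-05), -5.71 ± 1.01 for Apoc2 (adjusted p = 0.00125) and -10.48 ± 3.03 for Apoh (adjusted p = 0.0183). The value of Apoh rests on 0 counts in MNF_ciHep and 1 in MNF_ciEPC, and without MNF_ciEPC replicate 1 its adjusted p was 1. That of Apoc2 was lost without MNF_ciEPC replicate 2 (log2 -4.36, adjusted p = 0.065). Apoc1 had a difference of the opposite sign, 5.08 ± 2.04 (adjusted p = 0.0684), which was called without MEF_ciHep replicate 3 (adjusted p = 0.032) or MEF_ciEPC series 1 (0.0041). Apoa4 (-4.17 ± 1.77, adjusted p = 0.0954) and Apoc3 (-6.49 ± 2.47, adjusted p = 0.0656) did not pass, but both did with limma on log2(TPM + 1) (0.029 and 0.0034) and with no low-count filter (0.018 and 0.016). Without MEF_ciHep replicate 2, Apoa4 (log2 -4.70, adjusted p = 0.031) and Apoc3 (log2 -7.02, adjusted p = 0.036) were called too. For Apoe the difference was 0.20 ± 0.67 (adjusted p = 0.865). Single libraries, or for MEF_ciEPC a whole series, were also left out in turn. The difference then moved to between -12.22 (MNF_ciHep replicate 2) and -8.75 (MNF_ciEPC replicate 2) for Apoa1. For Apob it moved to between -11.74 (MEF_ciEPC series 1) and -7.39 (series 2). It moved to -6.47 (MNF_ciEPC replicate 1) for Apoc2 and to -12.10 (MEF_ciEPC series 1) for Apoh. The plot of both induction steps shows these values side by side.

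**Figure D3:**
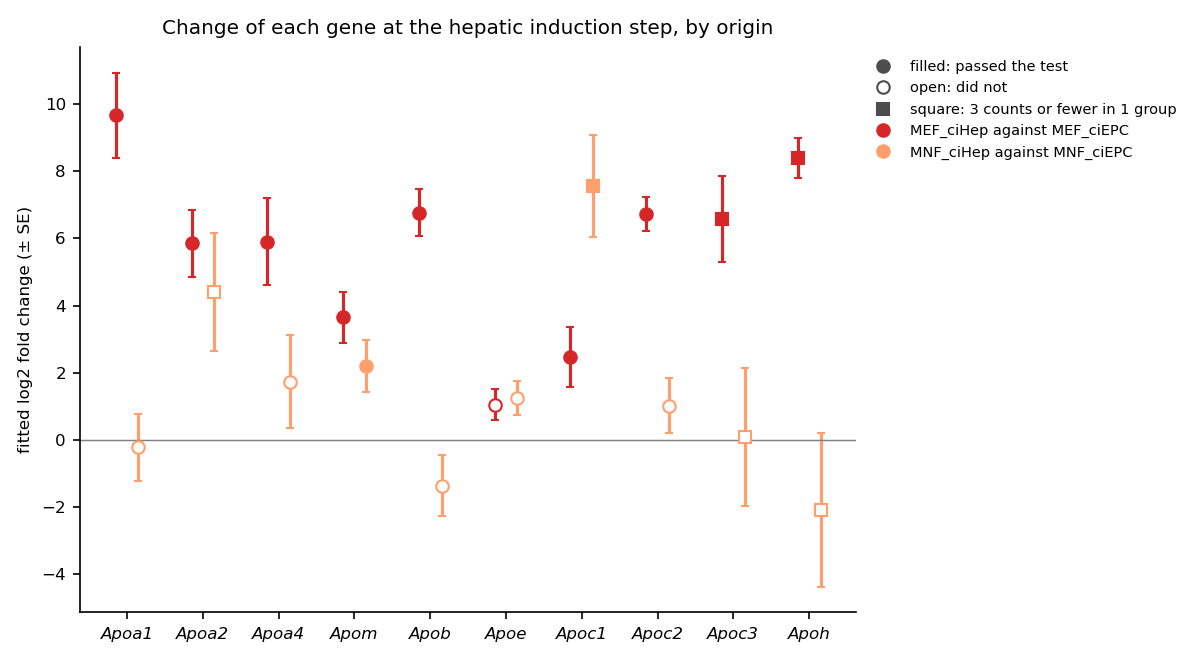
Fitted log2 fold change ± SE (derived from the test statistic) of each gene at the hepatic induction step, red for MEF origin and orange for MNF origin. Filled symbols mark changes that passed the test, and squares mark genes with 3 counts or fewer in 1 group. All 10 red values lie above 0, and the orange values of Apoa1, Apob and Apoh lie below 0 without passing.

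Set directly against each other, MNF_ciHep had 7 of the 10 members lower than MEF_ciHep and none higher, where 16.1% of all genes were lower and 17.8% higher. The median log2 fold change was -4.17, against 0.04 over all genes. Apoa1 was 390-fold lower, at 25.3 against 9224 CPM (log2 -8.61 ± 1.23, adjusted p = 0.000119). Apob was 129-fold lower (2.50 against 314 CPM, adjusted p = 9.38e-06), Apoc2 37.4-fold (2.38 against 96.8 CPM, adjusted p = 1.58e-05) and Apoh, without a count in MNF_ciHep, at least 53.4-fold (adjusted p = 3.94e-06). Apoa4 (21.8-fold, adjusted p = 0.0145), Apoa2 (7.75-fold, adjusted p = 0.0171) and Apoc3 (13.3-fold, 95% counting interval 4.41 to 65.8, adjusted p = 0.0374) were lower too. These last 3 calls were lost without MNF_ciHep replicate 1 (adjusted p 0.11 to 0.28), and that of Apoc3 also without MEF_ciHep replicate 1 (0.082) or 3 (0.081) and with DESeq2 (0.084). The MNF_ciHep libraries differ in these genes: the log2 fold change of Apoa1 was -7.64 without replicate 1 and -10.95 without replicate 2, that of Apoa2 -2.17 and -3.84 and that of Apoa4 -3.47 and -6.47, and without MEF_ciHep replicate 3 that of Apoa4 was -3.83. Apoe (log2 0.63 ± 0.45, adjusted p = 0.268), Apoc1 (1.09 ± 0.79, adjusted p = 0.274) and Apom (0.08 ± 0.66, adjusted p = 0.939) did not pass. The hepatocyte markers had at most 64.5 TPM in sum in MNF_ciHep and at least 3218 TPM in MEF_ciHep, and their part in the difference was not tested.

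Measured against primary hepatocytes, MEF_ciHep had 8 members lower and none higher, where 10.8% of all genes were lower and 15.1% higher. The median log2 fold change was -2.87, against 0.01 over all genes, and both groups are of 1 library type. Their strain labels differ, as given at the start, so cell group and strain background cannot be told apart in this comparison. Apoc1 was lowest, 24.4-fold (9.93 against 232 CPM, adjusted p = 0.000247), followed by Apoc3 with 23.2-fold (10.2 against 221 CPM, adjusted p = 0.000809). Apom was 10.96-fold lower (adjusted p = 0.000491), Apoa2 9.16-fold (adjusted p = 0.0016), Apob 8.34-fold (adjusted p = 0.000247), Apoc2 6.43-fold (adjusted p = 8.82e-05), Apoe 5.79-fold (adjusted p = 0.000445) and Apoh 5.04-fold (adjusted p = 0.000118). Apoa1 had 9224 against 2760 CPM (log2 1.74 ± 0.86, adjusted p = 0.136) and Apoa4 442 against 302 CPM (0.54 ± 0.98, adjusted p = 0.712). Of these 10 values, 2 turn on pHep replicate 1: without it Apoa1 was called higher in MEF_ciHep (log2 3.67, adjusted p = 0.021) and Apoa2 was no longer lower (log2 -0.35, adjusted p = 0.74). Apoa1 was also called higher with limma on log2(TPM + 1) (0.038), and the calls of Apoa2 (0.14) and Apoh (0.079) were lost with limma on log2(TPM + 0.1). Without it the log2 fold change was -3.95 for Apoc1, -2.95 for Apoc3 and -2.27 for Apom, and without replicate 2 it was -4.13 for Apoa2, -5.30 for Apoc3 and -4.12 for Apom. Without MEF_ciHep replicate 1 it was -4.15 for Apom, and without replicate 3 it was -5.42 for Apoc1. Between the pHep libraries themselves the TPM of replicate 1 was 10.6 times that of replicate 2 for Apoa2, 5.35 times for Apoa1 and 3.84 times for Apoc3, but 0.922 times for Apoe and 0.648 times for Apob. The libraries differ in sex-linked genes as given above, and the part of this was not tested. Macrophage markers (12 genes, 7 of them tested) were lower too: 6 were lower and 1 higher in MEF_ciHep (median log2 -6.36), and they summed to 36.98 to 107.7 TPM there and 112.7 to 199.9 TPM in pHep. Adgre1, Clec4f, Vsig4, C1qa, C1qb and C1qc were at 0 in MEF_ciHep and present in pHep, and Timd4 was at 0 in both. The part of this in the difference of Apoe and the other members was not tested.

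MNF_ciHep was lower than pHep for all 10 members, where 13.4% of all genes were lower and 18.4% higher. Apoe was lower by the least, 3.75-fold (950 against 3555 CPM, log2 -1.91 ± 0.51, adjusted p = 0.00751), then Apom with 10.4-fold (adjusted p = 0.00172) and Apoc1 with 11.4-fold (adjusted p = 0.00368). Apob was 1074-fold lower (2.50 against 2612 CPM, adjusted p = 1.21e-06), and Apoh, at 0 counts against 725, at least 279-fold (adjusted p = 6.26e-07). The call of Apoe was lost without MNF_ciHep replicate 1 (adjusted p = 0.075), and that of Apoa4 (15.0-fold lower, adjusted p = 0.0312) without MNF_ciHep replicate 1 (0.16) or pHep replicate 1 (0.15) and with DESeq2 (0.061), and that of Apoc1 with limma on log2(TPM + 0.1) (0.13). Here 3 of 7 macrophage markers were lower and none higher, with a sum of 54.48 to 137.3 TPM in MNF_ciHep. Over the 4 libraries left out in turn, the log2 fold change ranged from -9.25 (MNF_ciHep replicate 2) to -4.95 (pHep replicate 1) for Apoa1, from -7.08 (pHep replicate 2) to -3.26 (pHep replicate 1) for Apoa2, from -5.96 (MNF_ciHep replicate 2) to -2.72 (pHep replicate 1) for Apoa4 and from -4.03 (pHep replicate 2) to -2.21 (pHep replicate 1) for Apom. It was -2.87 for Apoc1 without pHep replicate 1 and -2.50 for Apoe without MNF_ciHep replicate 2. As a percent of the pHep mean in TPM, the MEF_ciHep libraries had 199 to 505% for Apoa1 and 22.4 to 278% for Apoa4, and 1.52 to 28.2% for the other 8. The MNF_ciHep libraries had 19.5 and 39.5% for Apoe, 9.19 to 11.8% for Apoc1 and Apom and up to 15.6% for Apoa4, and no more than 2.92% for the others.

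**Figure D4:**
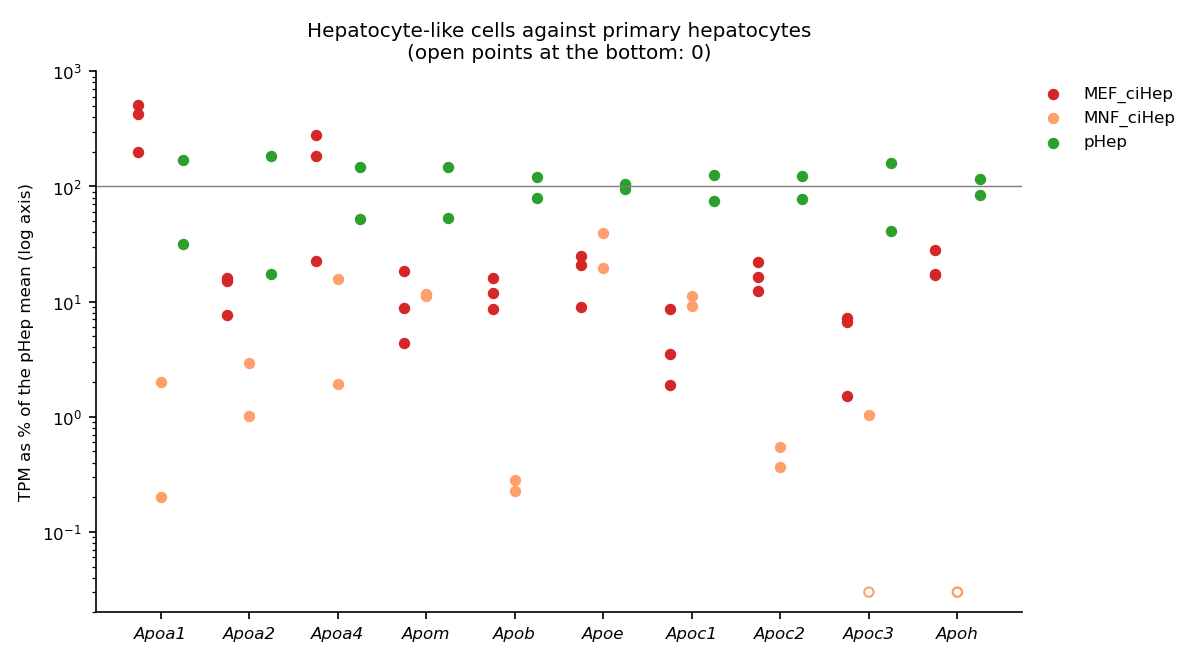
TPM of each library of MEF_ciHep, MNF_ciHep and pHep as a percent of the pHep mean, on a log axis with a line at 100%, and open points at the bottom for libraries at 0. Only Apoa1 and Apoa4 reach 100% in a hepatocyte-like library, all of them of MEF origin, and the 2 pHep points are widest apart for Apoa2.

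Over the whole path from fibroblasts, all 10 members rose in MEF_ciHep against MEF and none fell, where 22.9% of all genes rose and 19.3% fell. Of these, 4 had no count in MEF. Apoa1 was at least 29435-fold higher (adjusted p = 1.41e-06), Apoa4 at least 1257-fold, Apoc2 at least 352-fold and Apoc3 at least 30.2-fold. Apob was 387-fold higher (log2 8.59 ± 0.73, adjusted p = 1.83e-07) and Apoe 22.5-fold (log2 4.49 ± 0.48, adjusted p = 1.07e-06). In MNF_ciHep against MNF 7 rose and none fell, beside 16.2% and 11.6% of all genes. Apoe rose 53.0-fold (17.9 to 950 CPM, log2 5.73, adjusted p = 8.96e-06, and log2 5.12 without MNF_ciHep replicate 2), and Apoc1, Apoa1 and Apom, all at 0 in MNF, rose at least 63.8-fold, 60.6-fold and 28.7-fold. The calls of Apoa4, Apob and Apoc2 were lost without MNF replicate 1 or 2 (adjusted p 0.051 to 0.13), those of Apoa1, Apoa4 and Apob without MNF_ciHep replicate 2 (0.093 to 0.27) and those of Apob and Apoc2 without MNF_ciHep replicate 1 (0.11 for both). Apoa2, Apoc3 and Apoh did not pass. Each of these comparisons shares its control or hepatocyte-like libraries with others above, and both cross library types.

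Along the passages of MEF_ciEPC the levels were uneven. In series 1 Apoe had 1502 TPM at passage 2, 1310 at passage 3, 648 at passage 4, 930 at passage 6, 459 at passage 10 and 690 at passage 22. In series 2 it had 509 TPM at passage 1, 212 at passage 5, 664 at passage 10 and 536 at passage 22. Apob had 2.12, 4.24, 1.36 and 1.61 TPM at passages 2 to 6 of series 1 and was at 0 at passages 10 and 22 of both series. In series 2 it had 1 count each at passages 1 and 5 (0.08 and 0.66 TPM), so it was near 0 from the start. Of the 4 members with counts enough to be tested, none passed for a slope on log2 passage, where 0.00807% of 12390 genes rose and 0.0161% fell. The slope per doubling of passage was -1.71 ± 0.44 for Apob (adjusted p = 0.238, unadjusted p = 0.00314), -0.68 ± 0.31 for Apoa4 (adjusted p = 0.441), -0.56 ± 0.41 for Apoa1 (adjusted p = 0.629) and -0.10 ± 0.13 for Apoe (adjusted p = 0.81). Successive passages of a line are not independent. Passage 22 of both series stands apart in Y-linked genes, and that of series 2 also in pluripotency genes, as given above. Whether all libraries of a series are of 1 line was not tested.

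**Figure D5:**
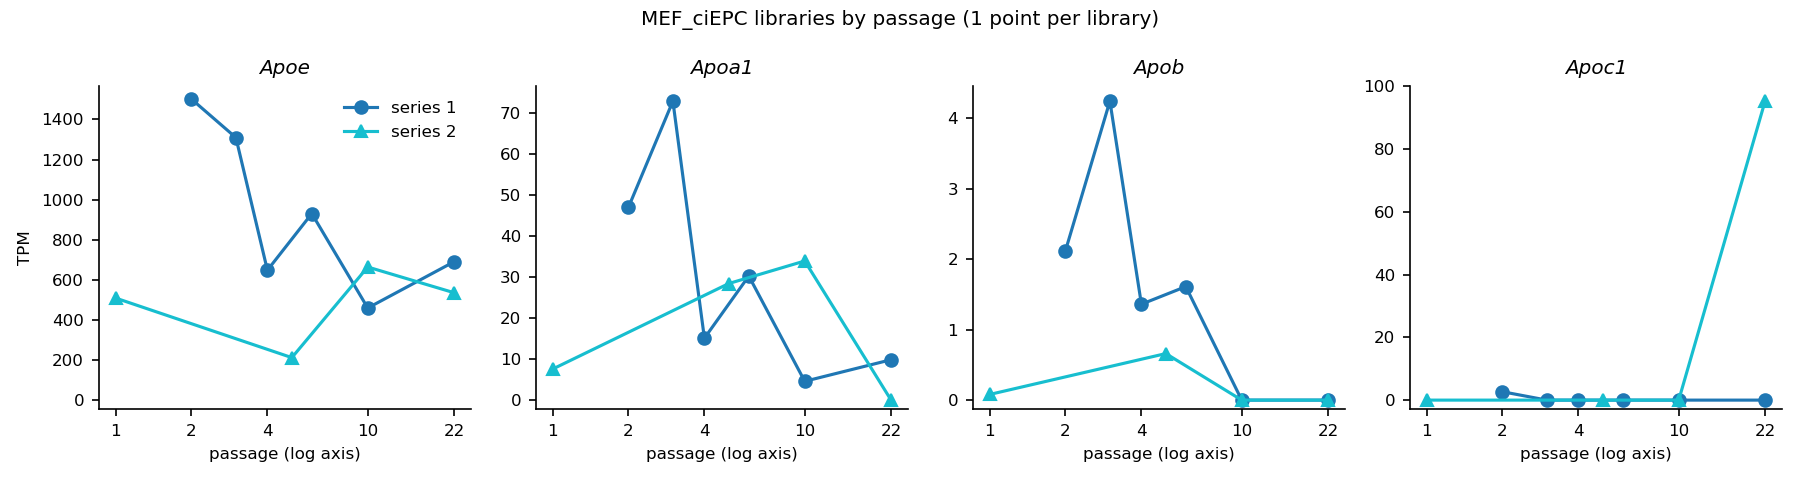
TPM of Apoe, Apoa1, Apob and Apoc1 in each MEF_ciEPC library against passage on a log axis, circles for series 1 and triangles for series 2, 1 point per library. Apob is at 0 from passage 10 on in both series, and series 2 has only 1 count at each earlier passage. The only high Apoc1 value, 95.3 TPM, is that of series 2 passage 22.

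The genes with the most similar pattern were read from the Pearson correlation of mean log2 CPM over the 9 group means, which share libraries and depth and are given as a description. Apoa1 was closest to BC025446 (0.992) and to Afp (0.986), the alpha-fetoprotein gene of fetal liver and yolk sac. Apoh was closest to Serpina1a and Cyp2c68 (0.998 each) and Apoc3 to the acute-phase genes Orm1 (0.998) and Apcs (0.995). Apoa4 was closest to Ugt2b34 (0.986) and to the retinol carrier gene Rbp4 (0.976), and Apob to Entpd8 (0.98) and Bmp8b (0.978). Apoa2 and Apoc2 shared Cyp2b10 (0.977 and 0.987), an enzyme gene of xenobiotic metabolism. The closest genes were less similar for Apoe (Slc39a4, 0.964), Apom (Il17rb, 0.966) and Apoc1 (Wfdc2, 0.951).

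Genes that act with the apolipoproteins were followed in 6 lists. Their counts are to be read beside all genes, of which 17.8% rose and 14.8% fell in MEF_ciHep against MEF_ciEPC (the MEF step) and 19.5% rose and 10.8% fell in MNF_ciHep against MNF_ciEPC (the MNF step). Of 12 genes of lipoprotein assembly and secretion, 5 rose and 1 fell in the MEF step (median log2 0.81), and none rose and 4 fell in the MNF step (median log2 -0.24). Mttp, which loads lipid onto Apob, rose by a log2 of 3.72 ± 0.43 in the MEF step (adjusted p = 6.48e-06), and the difference between the steps was -2.65 ± 0.60 (adjusted p = 0.00355). Mttp had 33.4 to 89.5 TPM in MEF_ciHep, 7.77 and 15.0 in MNF_ciHep and 103 and 104 in pHep. Cideb, which promotes lipidation of very-low-density particles (log2 4.67 ± 0.56), and Dgat2, which makes triglyceride (2.69 ± 0.32), rose in the MEF step as well. In MNF_ciHep against MEF_ciHep 6 of the 12 were lower and none higher, beside 16.1% and 17.8% of all genes, and against pHep MEF_ciHep had 1 higher (Soat2) and none lower (median log2 -0.07). Mttp missed the threshold there (log2 -0.92 ± 0.35, adjusted p = 0.0534).

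Of 22 tested regulators of apolipoprotein genes, 10 rose and 6 fell in the MEF step and 5 rose and 6 fell in the MNF step, where the 5 that rose are near the share of all genes. Hnf4a, a nuclear receptor that activates many of the members in liver, had 98.0, 130 and 70.1 TPM in MEF_ciHep, 1.5 and 5.69 in MNF_ciHep and 282 and 242.5 in pHep. It rose by a log2 of 2.22 ± 0.42 in the MEF step (adjusted p = 0.000955) and fell by 2.72 ± 0.56 in the MNF step (adjusted p = 0.0022), and the difference was -4.94 ± 0.70 (adjusted p = 0.000219). Nr2f2, a receptor that can repress such genes, rose by 5.99 ± 0.53 in the MNF step (adjusted p = 1.53e-06). Of 13 receptor and uptake genes, 1 rose and 6 fell in the MEF step and 1 rose and 7 fell in the MNF step. Lrp1, a receptor of remnant particles that fibroblasts also carry, rose by 6.56 ± 0.40 in the MNF step (adjusted p = 1.03e-07) and was 3.29 ± 0.29 lower in MEF_ciHep than in pHep on the log2 scale (adjusted p = 7.77e-07).

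Of 10 genes of HDL remodelling and lipid efflux, 5 rose and none fell in the MEF step, led by the sterol exporter gene Abcg1 (log2 3.56 ± 0.39, adjusted p = 4.63e-06). In the MNF step 2 rose and none fell, Pltp (4.87 ± 0.69) and Abca1 (2.29 ± 0.40), which is near the share of all genes. Lcat, the plasma enzyme that esterifies cholesterol on HDL, was lower in MEF_ciHep than in pHep by a log2 of 5.89 ± 0.69 (adjusted p = 1.05e-05), where Apoa1 was not. In the same comparison Abcg1 (log2 5.22 ± 0.50, adjusted p = 1.80e-06) and Lipg (6.12 ± 0.92, adjusted p = 0.000104) were higher. The median log2 fold change of this list against pHep was -0.04. Of 7 tested lipase genes and their regulators, 3 rose and none fell in each step: Angptl4, an inhibitor of lipoprotein lipase (log2 3.84 ± 0.33 and 7.08 ± 0.48), the lipase gene Lpl (3.87 ± 0.45 and 3.09 ± 0.47) and the lysosomal lipase gene Lipa (1.16 ± 0.23 and 2.57 ± 0.26). Of 9 other apolipoproteins, 4 rose and 1 fell in the MEF step and 2 rose and none fell in the MNF step, again near the share of all genes. In both ciHep groups 8 of 9 were lower than in pHep, where 10.8% (MEF_ciHep) and 13.4% (MNF_ciHep) of all genes were. Apoc4, the neighbour of Apoc2, had 1.75, 0.96 and 2.62 TPM in MEF_ciHep and 105 and 125 TPM in pHep (log2 -6.02 ± 0.73, adjusted p = 1.52e-05). Apoa5, next to Apoa4, had 0 to 3.11 TPM in MEF_ciHep and 14.3 and 13.2 TPM in pHep.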

How the data were processed

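RNA of 28 libraries was measured by RNA-seq, from total RNA taken with Trizol and prepared with an Illumina TruSeq kit, per the labels' protocols. The expected counts and the TPM values per gene, with their gene lengths, were made and deposited by the authors with RSEM 1.2.4 on mm10, per the submitters' processing notes; the aligner and the gene annotation are not given in the sources used here. Expected counts were rounded to whole numbers, and the libraries of each numbered MEF_ciEPC series were summed to 1 sample, which gave 20 samples in 9 groups. Genes were kept by filterByExpr with a count minimum of 10, scaled by TMM and fitted over all 20 samples with the quasi-likelihood test of edgeR 4.0.16 in R 4.3.3, with p-values adjusted by Benjamini and Hochberg over all genes tested. A gene was called at an adjusted p under 0.05 and a fold change of at least 2. The method was also run on simulated data with known changes, in which all other genes had the same mean share in every group, unlike here. No result above rests on its outcome, which is not given here. The changes were set only in genes above a minimum mean level over all samples. The simulation was therefore not set up for members with 3 counts or fewer in a group.

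A fold against a group without counts was computed against 3 counts over that group, and one against 1 to 3 counts is a ratio of counts with an exact 95% interval; both cover only the error of counting. The passage slope was fitted on the MEF_ciEPC libraries alone. Alternatives were DESeq2 1.42.0, limma 3.58.1 on log2(TPM + 1) and log2(TPM + 0.1), RLE scaling, an offset for effective length, no low-count filter, a count minimum of 50, the replicate block, only the groups compared, single MEF_ciEPC libraries and leaving out libraries. The labels do not say that replicates are separate cultures or animals, so p-values measure only the spread between these samples.

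All 10 members are reported. Of the pathway lists, up to 3 genes with the smallest adjusted p were named per comparison. The values of Hnf4a in the 2 induction steps and the levels of Apoa5 were added after they had been seen. The most similar genes are the 2 with the highest correlation. The members and lists were chosen with earlier results of these data known.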

Additional observations from a re-analysis of the deposited data

Results flagged for a closer look

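Within the 10 MEF_ciEPC libraries, 4 of the 10 members had a highest library that stood apart from the rest by its gap to the next, relative to the whole range. For normally spread values chance gives such a gap in about 1 of 20 groups, but these values are mostly at or near 0: with 9 of 10 libraries at 0 for Apoh and 8 of 10 for Apoc1, a single library with counts stands apart by construction. Apoc1 had 95.3 TPM and Apoa2 14.75 TPM in series 2 passage 22, the library with pluripotency markers at the level of stem cells, against 2.67 and 5.15 TPM in the next highest. ESC had 130 and 116 TPM of Apoc1 and 16.96 and 17.7 TPM of Apoa2. Apob had 4.24 TPM in series 1 passage 3, against 2.12 TPM in the next. Apoh had 1.09 TPM in series 1 passage 4, which is 2 counts, and 0 in the other 9.

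The response to hepatic induction differed between the origins for 4 members by the test of the difference itself, as given above. The log2 difference, MNF step minus MEF step, was -9.89 for Apoa1, -8.13 for Apob, -5.71 for Apoc2 and -10.48 for Apoh. The value of Apoh has no reliable size, since its MNF step sets 0 counts against 1, and without MNF_ciEPC replicate 1 its adjusted p was 1. The MNF step crosses library types and the MEF step does not, so origin and library type cannot be told apart here.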

How the results depend on the processing

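No called fold change of a member reversed under an alternative. Alternatives other than leaving out a replicate, among them the fits without series 2 passage 22, were counted together. Of the members' fold changes under them, 1323 kept their side of the threshold, 46 gained a call and 23 lost one. The counts of members called that moved by more than 1.5 times follow, and the cause was not tested; smaller moves are not listed, and the genes whose calls changed stand beside most results above. For MEF_ciEPC against ESC_EPC, the count higher was 1 under RLE scaling, a count minimum of 50, the replicate block and without series 2 passage 22, and the count lower was 1 under limma on log2(TPM + 1) and without that library. For MNF_ciHep against MNF_ciEPC, the count higher was 4 with DESeq2 and with no low-count filter. The difference between the induction steps had 1 member higher under those same 2 settings. MEF_ciHep against pHep had 1 higher under limma on log2(TPM + 1), and MEF_ciEPC against MEF 5 under limma on log2(TPM + 0.1). ESC_EPC against ESC had 1 higher under limma on log2(TPM + 0.1) and with only the groups compared, and 1 lower under limma on log2(TPM + 0.1) and the effective length offset.

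Leaving out each replicate in turn gave these ranges: MEF_ciEPC against MEF 2 to 3 higher; MNF_ciEPC against MNF 4 to 5 higher; MEF_ciHep against MEF_ciEPC 8 to 10 higher; MEF_ciHep against MEF 10 higher each time; MNF_ciHep against MNF 4 to 5 higher; MEF_ciEPC against ESC_EPC 0 to 1 higher and 0 to 1 lower; MNF_ciEPC against MEF_ciEPC 0 to 1 higher and 0 to 1 lower. The difference between steps had 3 to 6 lower and 0 to 1 higher, MNF_ciHep against MNF_ciEPC 1 to 2 higher, MNF_ciHep against MEF_ciHep 4 to 7 lower, MEF_ciHep against pHep 7 to 8 lower and 0 to 1 higher, MNF_ciHep against pHep 8 to 10 lower and ESC_EPC against ESC 1 lower each time. For MEF_ciEPC a whole series was left out. Where leaving out a replicate left a group with 1 sample, that sample is assumed to vary like the other groups.

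Same-numbered samples did not deviate together: of 73 pairs 0 correlated above 0.1, and 5 of 20 samples correlated best with their own number. The paired fit with the replicate block called 8 members higher in MEF_ciHep against MEF_ciEPC (without Apoc1, adjusted p = 0.16), 6 lower in MNF_ciHep against MEF_ciHep (without Apoa4, 0.078), 9 lower in MNF_ciHep against pHep (without Apoa4, 0.061), 6 higher in MNF_ciHep against MNF (without Apob, 0.058), 1 higher in MEF_ciEPC against ESC_EPC (without Apoa1, 0.060) and 5 lower in the difference between steps (with Apoc3, 0.049). The share of higher among all genes called moved by over 10 percentage points under limma on log2(TPM + 1): from 52.65% to 62.9% in MEF_ciEPC against MEF, from 54.6% to 39.4% in MEF_ciHep against MEF_ciEPC and from 64.3% to 54.1% in MNF_ciHep against MNF_ciEPC. Depth limits the members with few counts: between groups that both hold 3 counts or fewer no difference was detectable.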
